A study of Rattus norvegicus with 15 samples.

Results

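Rats that had lost 90% of the pancreas did not all become hyperglycaemic to the same degree, and the comparison described here is between the milder end of that range and its lower edge. Of 15 islet libraries, 7 come from rats with partial pancreatectomy (Px) whose label gives an average blood glucose below 300. They were divided by the glucose in the label alone. The 4 mildly raised Px libraries carry a glucose of 152, 155, 157 and 211, and the 3 near-normal Px libraries carry 104, 119 and 132. The labels give no unit for the glucose. The names near-normal and mildly raised stand only for these label values. All 7 rats were of the Lewis strain, all had the same operation, and islets of Langerhans were taken 10 weeks after it. An age of 4-5 weeks is given for every rat, and whether it is the age at surgery is not stated. The other 8 libraries are 3 severe Px libraries (glucose of 416, 421 and 464) and 5 Sham-operated libraries (glucose of 88 to 96), also at 10 weeks. Each library is called by the number in its label: near-normal 14 (104), 16 (119) and 2 (132), and mildly raised 4 (152), 8 (155), 10 (157) and 11 (211). The study's design counts 10 Px and 5 Sham rats, the same numbers as its libraries, and each library is taken as 1 rat.

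After most of the pancreas is removed, the remaining islets must secrete more insulin per cell to hold blood glucose, and in rats this remnant model is known for loss of beta cell identity genes once glucose climbs. Beta cells read glucose through its uptake (Slc2a2, the glucose transporter GLUT2) and metabolism, and closure of the potassium channel then opens calcium channels and releases insulin. A transcription factor pair, MondoA or ChREBP with Mlx, binds carbohydrate response elements and raises genes such as Txnip and Arrdc4 when sugar phosphates accumulate. Isolated islets also carry other cells, among them acinar cells of the exocrine pancreas, duct, endothelial and stromal cells, and macrophages.

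Polyadenylated RNA was counted per gene, with 19.11 to 31.64 M counts in each of the 7 libraries. Tested differences come from the 7 libraries alone, and levels are CPM on 1 scale for all 15 libraries. The islet label was checked against the hormones. The 8 islet hormone genes took 4.75 to 9.82% of counts in these 7 libraries, against 11.55 to 25.01% in Sham. Ins1 stood at 21800 to 54100 CPM in the 7. CPM are counts per M of a TMM-scaled library size rather than of all counts, so they cannot be set against the shares. Acinar markers took 22.76 to 53.47%, so exocrine transcripts outnumber hormone transcripts in all 7. Several libraries stand apart from the others of their group. Near-normal 14 and 16 held more acinar transcripts than the other 5 libraries. Mildly raised 8 held more immune transcripts, and mildly raised 11 held less Ins1 than any other of the 7. Near-normal 2 resembled the mildly raised libraries, and a large set of transcripts separated the libraries by label number.

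No gene passed the threshold between mildly raised and near-normal Px. Of 15315 genes tested, 0 were higher and 0 lower (0% in each direction) at a Benjamini-Hochberg adjusted p below 0.05 in edgeR's quasi-likelihood test, and the smallest adjusted p was 0.872. At an unadjusted p below 0.05 there were 743 genes (4.85%), of which 451 (2.94%) lay higher and 292 (1.91%) lower in mildly raised Px. The 2 groups did not overlap for 747 genes (4.88%), 448 higher (2.93%) and 299 lower (1.95%). The limma voom test called 0 genes in either direction, and DESeq2 called 1 higher and 1 lower, the loci AABR07071935.1 (log2 difference 3.43) and AABR07015608.1 (-1.92), which have no gene symbol and each had an adjusted p of 0.00296 there. Over all genes tested the median log2 difference, mildly raised minus near-normal, was 0.02. Scaling by library totals alone moved that median to 0.46, and list medians are read relative to the median of all genes. Severe Px against Sham, a comparison that shares none of these 7 libraries, called 4392 genes higher (30.3%) and 4044 lower (27.9%) of 14517 with the same test.

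Among the fits that left out 1 library, only the fit without near-normal 2 called any gene. Without near-normal 2, 8 genes were higher and 4 lower in edgeR's test. The higher genes were Leng8, Snhg11, Cspp1, Pnisr, Pnn and Col27a1 with the loci AABR07050391.2 and AABR07065531.1, and the lower ones included Cd163, F13a1 and Tff2, with adjusted p-values between 0.0209 and 0.0488. No gene was called when any other single library was left out, or when near-normal 2 and mildly raised 4 were left out together. Near-normal 2, the library with the highest glucose of its group, lay inside the range of the 4 mildly raised libraries for 76.5% of genes, against 54.8% for near-normal 14 and 55.1% for near-normal 16. Over all genes, the closest pair among the 7 libraries was near-normal 2 with mildly raised 4, the pair on either side of the boundary at 132 and 152, with a root mean square log2 difference of 0.397. The median of that measure was 0.633 over the 12 pairs across the groups, 0.641 over the 6 pairs within mildly raised Px and 0.57 over the 3 pairs within near-normal Px. Libraries of different groups therefore differed about as much as libraries of the mildly raised group differed among themselves.

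**Figure D1:**
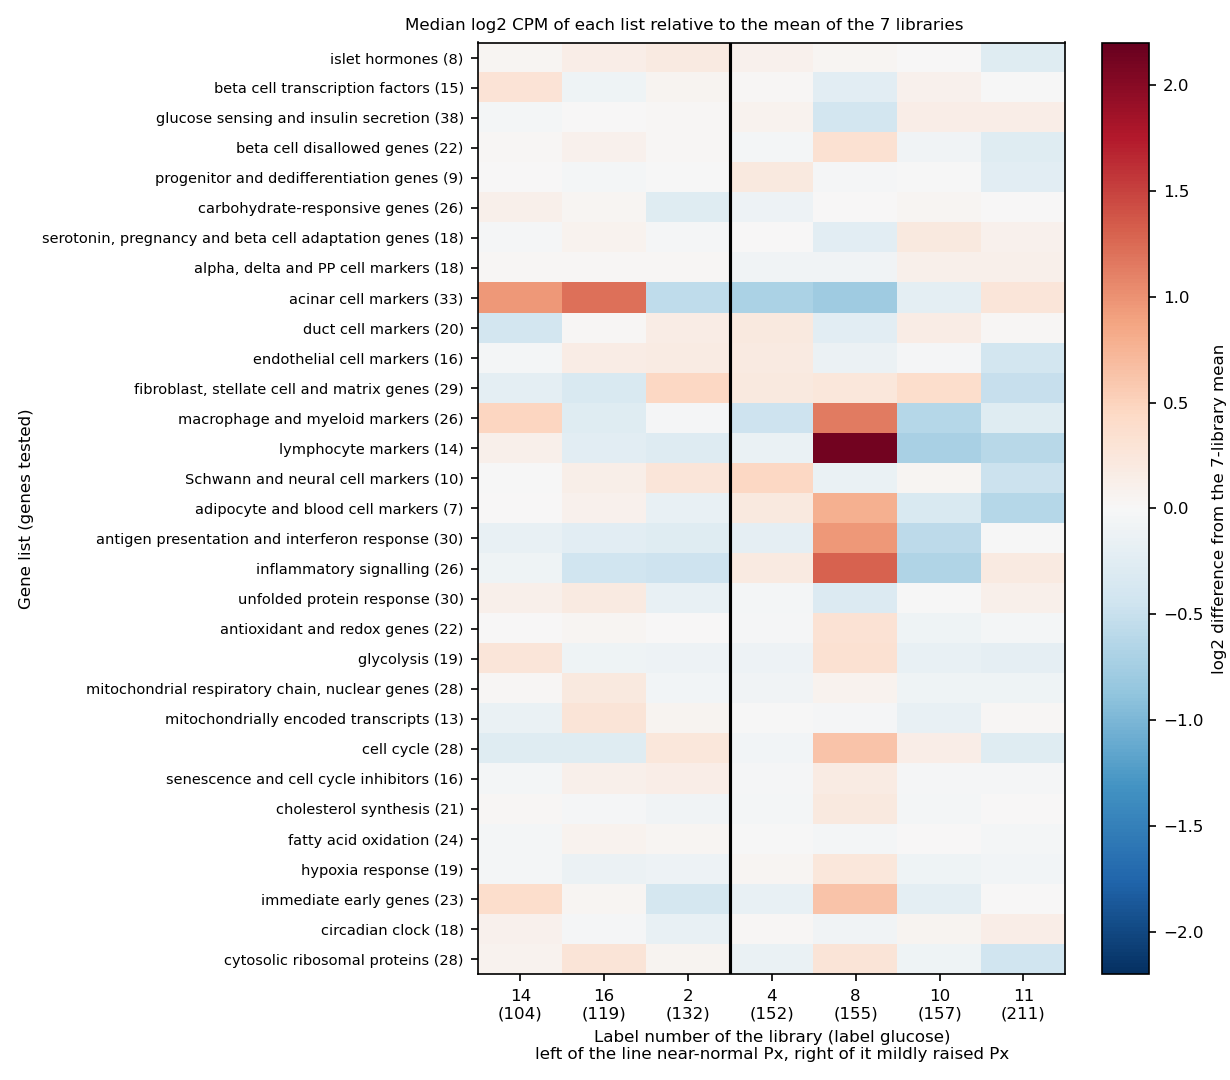
Median log2 CPM of each of 31 gene lists (rows, with the number of genes tested) in each of the 7 libraries (columns, label number with label glucose below it), as the difference from the mean of the 7 libraries; red is above and blue below that mean. Acinar markers are highest in near-normal 14 and 16, and lymphocyte, macrophage, antigen presentation and inflammatory genes are high in mildly raised 8, while the endocrine lists at the top are pale in all libraries.

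No hormone transcript passed the test between the 2 groups, and the intervals are wide. Ins1, 1 of the 2 rat insulin genes, stood at 52200, 45800 and 54100 CPM in near-normal 14, 16 and 2, and at 43500, 42900, 42300 and 21800 CPM in mildly raised 4, 8, 10 and 11. On this scale every mildly raised value was below every near-normal value, and the library at a glucose of 211 was the lowest by far. The lack of overlap depends on the scaling. As raw counts, Ins1 took 1092751 of 31.64 M in near-normal 14 and 678667 of 24.38 M in near-normal 16. In mildly raised 4 it took 1098493 of 20.74 M, a larger share of all counts than in either. Across the 7 libraries the fitted log2 difference for Ins1 was -0.43 ± 0.44 (SE), with a 95% interval from -1.43 to 0.57 and an adjusted p of 0.907 in edgeR. Without mildly raised 11 the Ins1 difference was -0.24. Ins2, the other insulin gene, overlapped between the groups (12400, 14900 and 16800 against 11200, 14100, 14600 and 5880 CPM), with an interval from -1.22 to 0.51. Ins1 and Ins2 are close copies whose reads the counting may share, so the split between them is uncertain. Gcg, glucagon of alpha cells, ran the other way at the highest glucose: it was 11700 CPM in mildly raised 11 against 3600 to 8120 CPM in the other 6 libraries, and its log2 difference was 0.34 (interval -0.56 to 1.24) with that library and 0.01 without it. The 2 libraries at the extremes of Gcg, mildly raised 4 at 3600 and 11 at 11700 CPM, belong to the same group. Iapp (amylin, co-secreted with insulin), Sst (somatostatin of delta cells) and Ppy (pancreatic polypeptide) had log2 differences of -0.13, -0.32 and 0.02, with intervals that include 0. Of the 8 hormone genes 3 lay above 0 and 5 below, with a median of -0.17, and the hormone share was 7.37 ± 1.781% (SD, n = 4) against 6.695 ± 2.718% (n = 3), exact permutation p = 0.743. Leaving out 1 library moved that difference of 0.6753 percentage points to between -0.2295 (without near-normal 16) and 2.238 (without near-normal 2).

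No beta cell identity gene passed either, and for several the interval bounds the difference. Nkx6-1, a transcription factor required for the mature beta cell, stood at 97.1, 72.2 and 71.8 CPM in near-normal 14, 16 and 2 and at 77.2, 60.9, 86.4 and 75.5 CPM in mildly raised 4, 8, 10 and 11. The ranges overlap almost fully, and the fitted fold was 0.94 with a 95% interval from 0.727 to 1.21. For Slc2a2 the fold was 0.895 (interval 0.66 to 1.22), for Glp1r, the receptor of the incretin GLP-1, 0.871 (0.674 to 1.13), and for Ucn3, a maturity marker, 0.818 (0.633 to 1.06). In severe Px against Sham these 4 genes were lower: by log2 differences of -1.72 for Nkx6-1, -1.55 for Slc2a2, -2.04 for Glp1r and -2.10 for Ucn3, each with an adjusted p of 3.38e-05 or less in edgeR. All 7 libraries also lay below Sham on these 4 genes, near-normal Px included. Nkx6-1 reached at most 97.1 CPM in the 7, against at least 203 CPM in Sham. The same 2 values were 1050 and 1700 CPM for Slc2a2, 99.5 and 207 CPM for Glp1r, and 104 and 216 CPM for Ucn3. For each of these 4 genes the interval between mildly raised and near-normal Px ends short of that gene's own difference of severe Px from Sham. That is not so for Mafa, which drives insulin gene transcription: its difference was -0.58 (interval -1.20 to 0.05, adjusted p = 0.872), and the difference of severe Px from Sham, -0.72 (adjusted p = 0.0918 in edgeR), lies inside that interval. It was 61.2, 23.9 and 36.3 CPM in near-normal 14, 16 and 2 and 21.8, 27.3, 28.8 and 30.3 CPM in mildly raised 4, 8, 10 and 11, so near-normal 14 alone lay far above the rest and near-normal 16 lay among the mildly raised values. Pdx1, the master factor of the pancreas and beta cell, was at -0.33 (-0.70 to 0.03), against -0.86 in severe Px from Sham (adjusted p = 0.000131).

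As a group, 15 beta cell transcription factors were tested; 5 lay above and 10 below 0, the median was -0.09, and 0 passed the test. The 38 genes of glucose sensing and insulin secretion had 24 above and 14 below 0 and a median of 0.05. Rfx6, a factor of endocrine development and beta cell function, was the only transcription factor of the list with an unadjusted p below 0.05. It stood at 29.7, 29 and 44.7 CPM in near-normal 14, 16 and 2 and at 52.8, 35.8, 53.3 and 55 CPM in mildly raised 4, 8, 10 and 11 (log2 difference 0.51, adjusted p = 0.872 in edgeR). Near-normal 2 thus lay with the mildly raised libraries, apart from mildly raised 8. Snap25, a protein of the granule fusion machinery, also had near-normal 2 above near-normal 14 and 16, with 70.3, 88 and 112 CPM against 123, 87.3, 128 and 143 CPM. Genes that beta cells normally keep silent (disallowed genes) had 9 members above and 13 below 0 of 22 tested, with 0 higher and 3 lower at an unadjusted p below 0.05 (1.91% of all genes were lower) and 0 called. Tst, a sulphurtransferase of mitochondria, was 22.5, 32.3 and 11.5 CPM in near-normal 14, 16 and 2 against 8.2, 11.7, 12.6 and 10.6 CPM, so near-normal 14 and 16 alone stood out (-1.03, adjusted p = 0.872 in edgeR). Igfbp4, a binding protein of insulin-like growth factors, was 286, 302 and 228 against 233, 216, 228 and 186 CPM (-0.33), and Ndrg2 differed by -0.49. Ldha, lactate dehydrogenase A, was 53.1, 25.9 and 31.3 against 38.7, 104, 26.7 and 31.6 CPM, with the highest value in mildly raised 8. Aldh1a3, a marker of dedifferentiating beta cells, ranged from 14.4 to 34.1 CPM in the 7 libraries, with the lowest value in mildly raised 11 at the highest glucose, and its fold was 0.953 (0.607 to 1.49). Its level was 33.4 to 54.3 CPM in severe Px and 1.69 to 4.66 CPM in Sham, so all 7 libraries lay above Sham on this gene regardless of glucose.

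**Figure D2:**
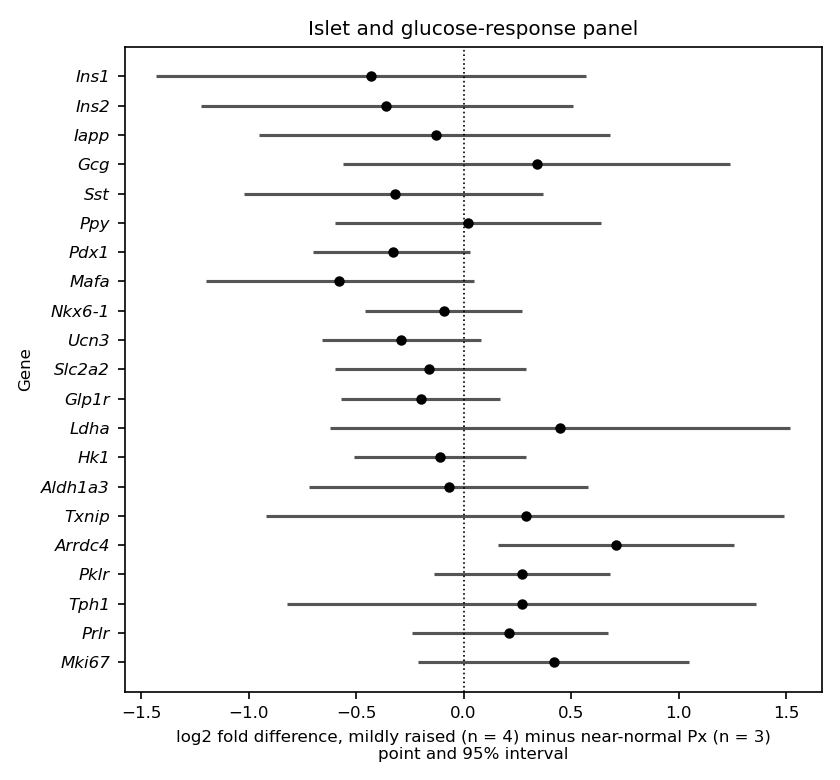
Fitted log2 fold difference (x axis, mildly raised, n = 4, minus near-normal Px, n = 3) with its 95% interval for 21 islet and glucose-response genes (y axis). Intervals of 20 genes include 0; that of Arrdc4 lies above 0, and the gene did not pass after adjustment over all genes.

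Among genes known to respond to carbohydrate, 26 were tested, 15 lay above and 11 below 0, the median was 0.06 and 0 passed. Arrdc4, an arrestin-family protein that limits glucose uptake and a direct MondoA target, had the largest positive difference of the list. It stood at 36.9, 62.3 and 35.5 CPM in near-normal 14, 16 and 2 and at 53, 70.5, 83.2 and 86.1 CPM in mildly raised 4, 8, 10 and 11. Within the mildly raised group its order followed the label glucose, and near-normal 16 overlapped with mildly raised 4. The log2 difference was 0.71 ± 0.24 (SE), with an interval from 0.16 to 1.26, an unadjusted p of 0.0168 and an adjusted p of 0.872 in edgeR. In severe Px, Arrdc4 was 59.7, 75.4 and 65.7 CPM, no higher than in mildly raised Px, and in Sham it was 40.9 to 58.4 CPM. The log2 difference of severe Px from Sham was 0.42 (adjusted p = 0.0207 in edgeR).

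Txnip, the thioredoxin-interacting protein and closest relative of Arrdc4 in this response, did not share that order. It was 252, 1110 and 247 CPM in near-normal 14, 16 and 2 and 575, 621, 931 and 479 CPM in mildly raised 4, 8, 10 and 11. Near-normal 16, at a glucose of 119, held the highest Txnip of all 7 libraries, and mildly raised 11, at 211, held the lowest of its group. The resulting log2 difference was 0.29, with an interval from -0.92 to 1.49. All 7 libraries lay above the 5 Sham libraries (62.7 to 155 CPM) and overlapped with severe Px (580 to 1160 CPM). Near-normal 16 was also the highest near-normal library for Arrdc4, so the 2 genes shared that library's position. Pklr, the pyruvate kinase of liver and beta cell, was 41.3, 51.8 and 61.3 against 55.8, 52.5, 74.7 and 64.9 CPM (fold 1.21, 0.908 to 1.6).

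The promoter of Arrdc4 is shown because the gene's response to sugar is known to run through E-box-like elements close to its start. The RefSeq window on GRCr8 (chr1:131793376-131793675, minus strand) covers 250 bases before to 50 bases after the start site, with each match to the motif CACGTG in capitals:
Arrdc4: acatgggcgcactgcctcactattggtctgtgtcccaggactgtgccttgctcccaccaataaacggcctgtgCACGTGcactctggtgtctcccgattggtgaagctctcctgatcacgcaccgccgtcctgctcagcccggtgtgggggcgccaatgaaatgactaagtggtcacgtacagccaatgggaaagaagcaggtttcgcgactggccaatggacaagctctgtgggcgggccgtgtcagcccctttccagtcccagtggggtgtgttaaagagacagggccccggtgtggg
CACGTG reads the same on both strands. It occurs 1 time here, beginning at position -177, and it occurs in 2148 of 33469 promoter windows of the same length (6.42%). The match is a description of the letters and does not show that a factor binds there.

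**Figure D3:**
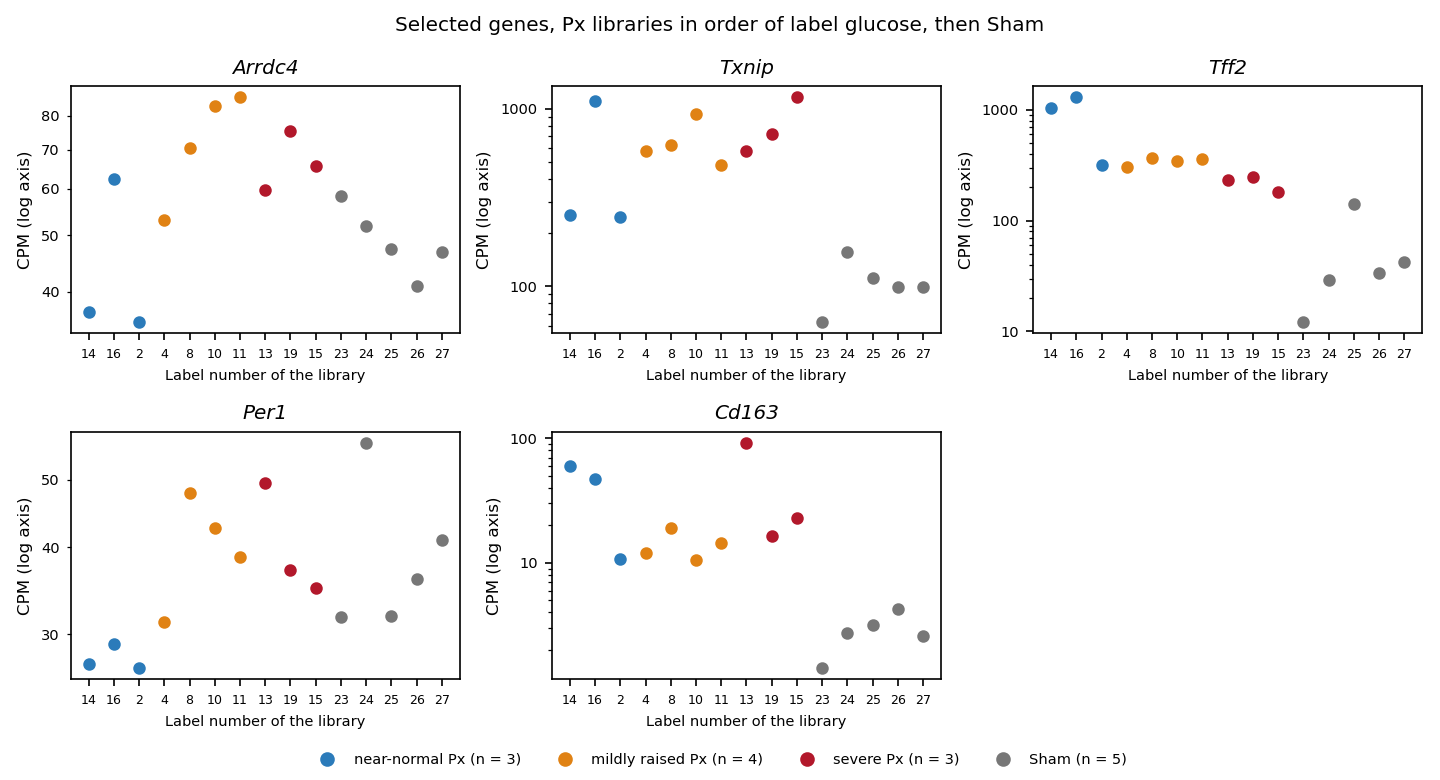
CPM (log axis) of 5 genes in all 15 libraries, with Px libraries in order of label glucose from left to right and Sham last; each point is 1 library and colour gives the group. Arrdc4 and Per1 are lowest in near-normal 14 and 2, below all 4 mildly raised libraries, while Tff2 and Cd163 are high in near-normal 14 and 16 and not in near-normal 2.

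Of the 31 gene lists, that of acinar markers had the largest median difference. Acinar markers took 47.8, 53.47 and 28.73% of counts in near-normal 14, 16 and 2 and 23.54, 22.76, 30.75 and 34.34% in mildly raised 4, 8, 10 and 11. The means were 43.33 ± 12.96% (SD, n = 3) and 27.85 ± 5.63% (n = 4), a difference of -15.48 percentage points with an exact permutation p of 0.171, where the smallest p that 4 against 3 libraries allow is 0.0571. Near-normal 2 overlapped with the mildly raised libraries, and severe Px (33.94 to 43.99%) lay between the near-normal extremes. In bulk islets fewer acinar cells and less RNA per acinar cell cannot be told apart. Of 33 acinar markers tested 32 lay below 0, with a median log2 difference of -1.05 against 0.02 for all genes. Of the 33, 18 were lower at an unadjusted p below 0.05, the groups overlapped for every one, and 0 passed; over all genes 1.91% were lower at that p. The list's median was -1.43 without near-normal 2 and between -1.31 and -0.69 without any other single library (-0.69 without near-normal 16), and with a term for the 2 sets of label numbers it was 0.22.

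Digestive enzymes were high in the same libraries. Prss1, a trypsinogen, was 171000, 178000 and 52700 CPM in near-normal 14, 16 and 2 and 32700, 30300, 54300 and 55800 CPM in mildly raised 4, 8, 10 and 11, and its difference of -1.61 was the largest of the list. Trypsinogen genes are a family of close copies, so reads may be split among them. The elastase Cela2a followed with 26500, 31300 and 8860 against 8520, 10300, 9830 and 13100 CPM. The lipase Pnlip showed the same division, with 25100, 32200 and 7700 against 8220, 8080, 10000 and 17900 CPM. Prss1, Cela2a, Pnlip, Cpa1, Cel and Ctrb1 were chosen as examples after their values were seen, and for each of them near-normal 14 and 16 were the 2 highest of the 7 libraries. Tff2, a trefoil peptide of mucus-secreting cells that was kept on the acinar list, was 1050, 1300 and 320 CPM against 304, 371, 348 and 359 CPM. The other 5 libraries of the 7 were within 304 to 371 CPM, and severe Px had 182 to 247 CPM at acinar shares of 33.94 to 43.99%, so Tff2 did not order the libraries as the acinar share did. With the acinar share as a covariate in edgeR, 0 genes were called in either direction, as without it. The median of the acinar list was then 0.22. That share is computed from the same list, so the change in its median is built into the fit.

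**Figure D4:**
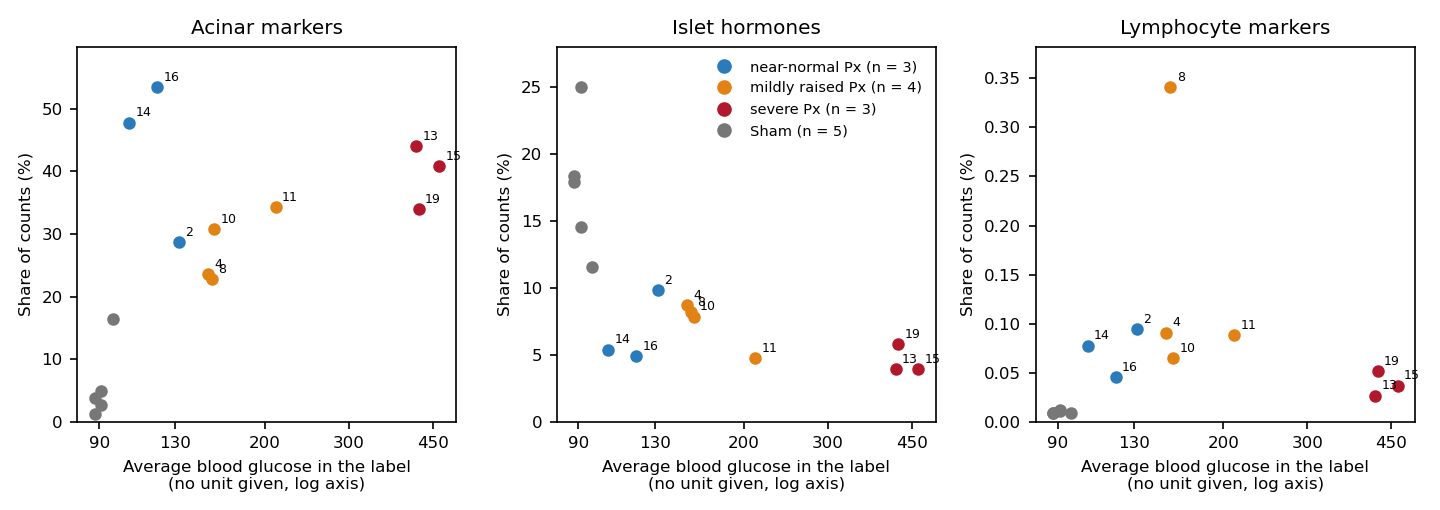
Share of all counts (y axes, percent, starting at 0) on acinar markers, islet hormones and lymphocyte markers against the average blood glucose of the label (log axis, no unit given) in all 15 libraries; each point is 1 library, numbered by its label for Px, and colour gives the group. Near-normal 14 and 16 have the highest acinar shares, and mildly raised 8 is alone at 0.341% lymphocyte markers.

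Immune and inflammatory lists leaned upward in mildly raised Px, and the lean came mostly from 1 library. Of 26 inflammatory genes 25 lay above 0 with a median log2 difference of 0.65, of 30 antigen presentation and interferon genes 28 lay above 0 with a median of 0.45, and of 14 lymphocyte markers 11 lay above 0 with a median of 0.87. None of these genes passed the test. Without mildly raised 8 the medians were 0.20, -0.01 and -0.21. In that library lymphocyte markers took 0.341% of counts against 0.0451 to 0.0942% in the other 6, and macrophage markers took 0.598% against 0.0752 to 0.186%. Lyz2, lysozyme of myeloid cells, was 2860 CPM there, and near-normal 14, with 1190 CPM, was the next; the others lay between 359 and 525 CPM. Cd3d, part of the T cell receptor complex, was 4.82 CPM there against 0.378 to 0.674 CPM. Nkg7, of cytotoxic lymphocytes, was 16.7 CPM against 1.57 to 2.69 CPM. Ptprc, the pan-leukocyte antigen CD45, was 137 CPM against 22.1 to 48.1 CPM.

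A smaller set of inflammatory genes was shared by mildly raised 8 and 11. Cxcl2, a neutrophil-attracting chemokine, was 1.48, 1.15 and 0.788 CPM in near-normal 14, 16 and 2 and 1.15, 8.67, 2.71 and 8.47 CPM in mildly raised 4, 8, 10 and 11, with a log2 difference of 2.21 (adjusted p = 0.872 in edgeR). Cxcl1, its close relative, did not overlap between the groups, but at 0.27 to 2.68 CPM it was counted 4 to 78 times a library. Nlrc5, the activator of MHC class I genes, was 10.4, 7.56 and 10.3 against 13.8, 31.1, 11.2 and 20 CPM. It did not overlap between the groups, and its difference was 1.01 ± 0.33. Cxcl10 and Mx1, both induced by interferon, were led by mildly raised 11 rather than 8: Cxcl10 was 75.1 CPM there against 6.28 to 17.1 CPM in the other 6 libraries, and Mx1 was 38.1 CPM against 4.34 to 13.8 CPM. Mildly raised 11 had no excess of lymphocyte markers (0.0883%).

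Macrophage genes split in a different way. The 26 macrophage and myeloid markers had 14 members above and 12 below 0 and a median of 0, with -0.55 without mildly raised 8. Cd163, the haemoglobin scavenger receptor of tissue-resident macrophages, was 60.3, 47.4 and 10.7 CPM in near-normal 14, 16 and 2 and 12.1, 19.1, 10.5 and 14.3 CPM in mildly raised 4, 8, 10 and 11. F13a1, another gene of resident macrophages, was 24.4, 15.3 and 2.42 against 2.89, 3.37, 2.42 and 3.17 CPM. In severe Px libraries 13, 19 and 15 Cd163 was 91.3, 16.5 and 22.8 CPM and F13a1 was 32.5, 9.68 and 9.83 CPM, so F13a1 separated all Px libraries by label number. Stab1, a scavenger receptor of the same cells and of sinusoidal endothelium, was 54.7, 45.6 and 41.3 against 30.8, 29.1, 35.4 and 19.3 CPM, without overlap. The pan-macrophage gene Adgre1 (F4/80) did not set near-normal 14 and 16 apart from near-normal 2. It was 21.7, 15.3 and 17.1 against 14.2, 22.1, 11.8 and 9.29 CPM (log2 difference -0.33). Apart from mildly raised 8, its mildly raised values lay below the near-normal ones. Mildly raised 8, the library richest in leukocyte transcripts, had less Cd163 and F13a1 than near-normal 14 and 16. Within the mildly raised group it had the most of both. Endothelial markers lay below 0 for 16 of 16 genes, with a median of -0.13 (0.30 with library totals alone, below the 0.46 of all genes); Sox18, an endothelial transcription factor, had the largest difference at -0.80 (adjusted p = 0.872 in edgeR).

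Other pathways showed small medians with 0 genes called. The unfolded protein response had 7 of 30 genes above 0 and a median of -0.09. Trib3, a pseudokinase induced by the stress factor Atf4, was the only member with an unadjusted p below 0.05. It was 5.97, 12.9 and 4.03 CPM in near-normal 14, 16 and 2 and 2.02, 3.23, 3.08 and 3.55 CPM in mildly raised 4, 8, 10 and 11, without overlap (log2 difference -1.34, adjusted p = 0.872 in edgeR). Chac1, a glutathione-degrading enzyme, was 43 CPM in near-normal 16 and 5.07 to 8.79 CPM in the other 6 libraries. Atf4 itself was 266, 294 and 181 against 177, 166, 192 and 217 CPM, and the chaperones Hsp90b1 and Calr differed by 0.10 and 0.05. Glycolysis (median 0.01), cholesterol synthesis (0.02), the circadian clock (0) and antioxidant genes (0.03) were centred close to the median of all genes. Mitochondrial respiratory chain genes had 6 of 28 above 0 and a median of -0.12. Cell cycle genes had 23 of 28 above 0 and a median of 0.19, which was 0.01 without mildly raised 8. Mki67, a marker of cycling cells, was 17, 16.6 and 29.2 against 22.7, 41.3, 27.3 and 21.6 CPM.

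The division of the libraries by label number runs through this comparison. Libraries numbered 2 to 11 are the 4 mildly raised ones and near-normal 2, while 13 to 19 are near-normal 14 and 16 and the 3 severe Px libraries. For 1058 of 15661 genes (6.76%) all 5 lower-numbered Px libraries lay above all 5 higher-numbered ones, and for 751 (4.8%) below. Among the Sham libraries, where the glucose is nearly the same, 23 and 24 lay above 25 to 27 for 2944 genes (18.8%) and below for 3887 (24.8%). Of the 1058 genes above in Px, 753 (71.2%) were also above in Sham and 19 were opposite. Of the 751 below, 389 (51.8%) were also below and 17 opposite. The labels do not say what the numbers stand for. Both cuts, after 11 in Px and after 24 in Sham, were set with the values of these libraries known. The shared genes therefore describe the division and do not test it. Label number and glucose group cannot be told apart for near-normal 14 and 16 against the mildly raised libraries, and near-normal 2 is the only library that separates them.

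The transcripts behind this division were chosen after their values were seen. Leng8, a nuclear RNA-processing protein, was 44.1 and 42.8 CPM in near-normal 14 and 16, 106 CPM in near-normal 2, and 116, 126, 115 and 125 CPM in mildly raised 4, 8, 10 and 11. In severe Px it was 44 to 55.8 CPM, in Sham 23 and 24 it was 166 and 151 CPM, and in the other Sham libraries 39.1 to 47.8 CPM. Within Px and within Sham the lower-numbered set held more Leng8, and near-normal 2 lay near the mildly raised libraries. The reason was not tested. Snhg11, a long non-coding RNA, was 22 and 21.9 CPM in near-normal 14 and 16 and 78.1 to 108 CPM in the other 5. Pnn, a splicing-associated protein, was 31.4 and 33.4 CPM in near-normal 14 and 16 and 67 to 69.4 CPM in the other 5. Gipr, the receptor of the incretin GIP on beta cells, was 57 and 44 CPM against 108 to 140 CPM in the other 5, 50.9 to 59.2 CPM in severe Px, and 335 and 285 CPM in Sham 23 and 24 against 90.6 to 99.5 CPM in 25 to 27. Ssr4, a protein of the translocon at the endoplasmic reticulum, ran the other way and was 140 and 107 CPM in near-normal 14 and 16 and 58.2 to 76.8 CPM in the other 5. With a term for the 2 sets of label numbers in edgeR's fit, 0 genes were called in either direction, 32 lay higher and 47 lower at an unadjusted p below 0.05, and the contrast then rested on near-normal 2 against the mildly raised libraries.

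**Figure D5:**
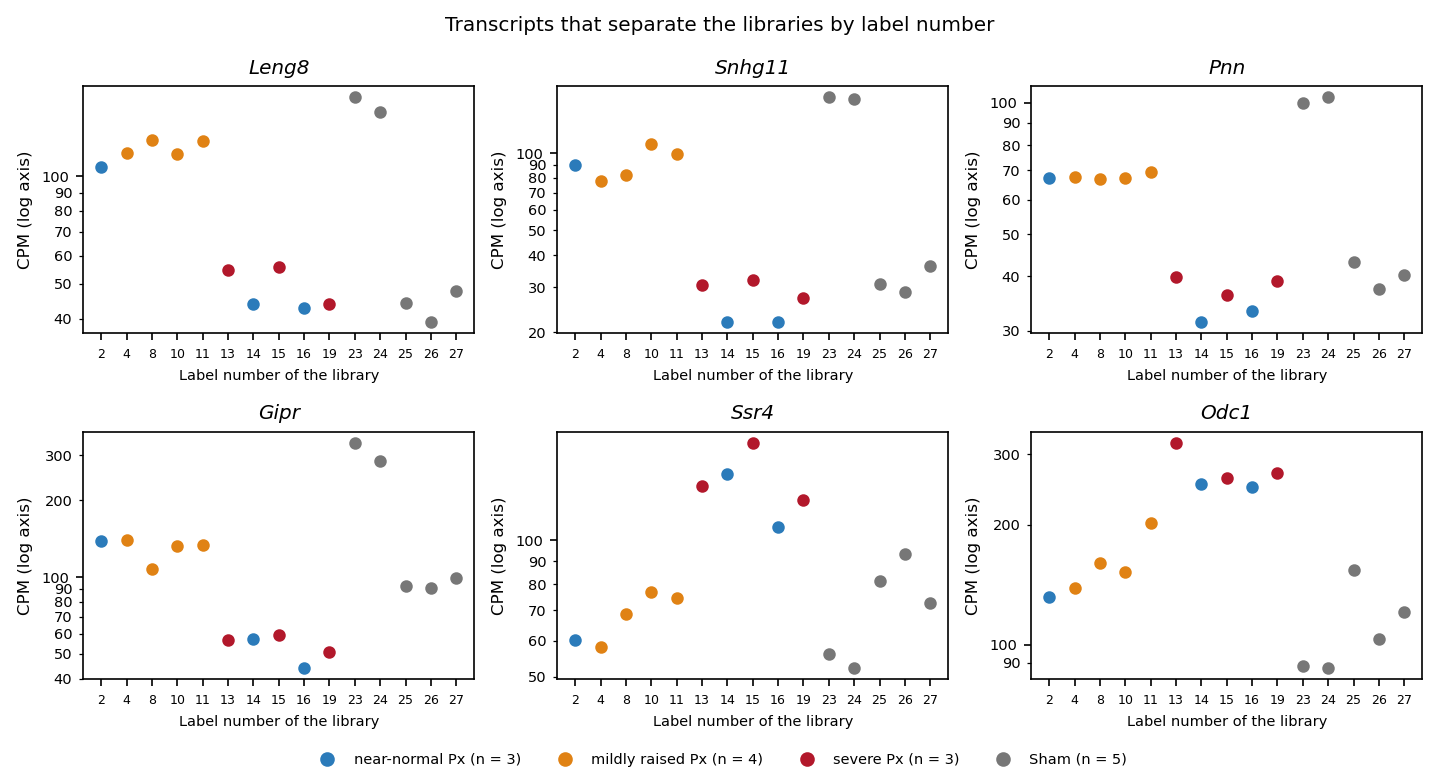
CPM (log axis) of 6 transcripts in all 15 libraries in order of label number (x axis); each point is 1 library and colour gives the group. For Leng8, Snhg11, Pnn and Gipr the Px libraries numbered 2 to 11 lie above those numbered 13 to 19 and Sham 23 and 24 lie above Sham 25 to 27; Ssr4 and Odc1 lie the other way in both.

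The 12 genes with the smallest p among those higher in mildly raised Px, without overlap and with a mean of at least 5 CPM, all missed the threshold at an adjusted p of 0.872. They were Hivep3, Micb, Dclre1c, Ercc6, Per1, Akap8l, Enpp2, Zfc3h1, Mapkbp1, Apbb3, Pan2 and Naa16, with log2 differences from 0.46 to 0.90. Per1, a core gene of the circadian clock, was 27.2, 29 and 26.8 CPM in near-normal 14, 16 and 2 and 31.2, 47.8, 42.6 and 38.7 CPM in mildly raised 4, 8, 10 and 11 (0.54 ± 0.14). All 3 near-normal libraries were close together, near-normal 2 included, and severe Px (34.9 to 49.5 CPM) lay with the mildly raised libraries. Sham, at the lowest glucose, spanned 31.7 to 56.4 CPM, so the order did not extend to it. Hivep3, a zinc-finger protein, was 9.78, 8.51 and 8.85 against 12.9, 14, 11.9 and 14 CPM (0.55 ± 0.13). Enpp2, autotaxin, which makes lysophosphatidic acid, was 42.3, 42.3 and 46.4 against 51, 64.9, 56 and 68.5 CPM (0.46 ± 0.13), with 51.8 to 76.4 CPM in severe Px and 51.4 to 64.2 CPM in Sham. Of the 12 genes, 8 separated all Px libraries by label number in the same direction, and 9 did so among Sham libraries with 1 opposite. Over all genes the shares are 6.76% in Px and 18.8% in Sham, and choosing genes higher in all mildly raised libraries already fixes part of the Px order. Pan2, of a deadenylase complex, is an example: 19.5, 21.6 and 31 against 33.6, 34.4, 39.3 and 38.1 CPM, 19.1 to 21.5 CPM in severe Px, and 54.2 and 53.1 CPM in Sham 23 and 24 against 17 to 20.2 CPM. In severe Px against Sham 0 of the 12 were higher and 2, Hivep3 and Mapkbp1, lower, against 30.3% and 27.9% of all genes.

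The corresponding 12 genes lower in mildly raised Px were Tmem223, Stab1, Jup, Uqcrfs1, Unc5b, Dnajc22, Slc9a3r2, Jag2, Zbtb42, Pde2a, Sema3c and Timmdc1, with log2 differences from -0.85 to -0.33, again all at an adjusted p of 0.872. Jup, plakoglobin of cell junctions, was 75.7, 79.3 and 74 CPM in near-normal 14, 16 and 2 and 56.4, 61.9, 64.1 and 59.4 CPM in mildly raised 4, 8, 10 and 11 (-0.33 ± 0.09). Unc5b, a netrin receptor, was 33.8, 34 and 34.6 against 27.4, 26.3, 29 and 25.5 CPM (-0.33 ± 0.10), and severe Px (25.4 to 27.4 CPM) lay with the mildly raised libraries while Sham reached from 24.1 to 35.4 CPM. For both genes near-normal 2 lay with near-normal 14 and 16. Tmem223, a mitochondrial assembly factor, was 39.4, 42.2 and 34.7 against 29, 28.9, 30.1 and 25.5 CPM (-0.44 ± 0.11), but was higher in severe Px than in Sham by 0.74 (adjusted p = 0.00181 in edgeR). Jag2, a Notch ligand, was 38, 33.7 and 27.5 against 23.4, 24.9, 24.7 and 16.7 CPM, and 37.5 to 54.5 CPM in severe Px. Of the 12 genes, 9 separated all Px libraries by label number in the same direction and 7 did so in Sham, with 0 opposite, against 4.8% and 24.8% of all genes; the choice of genes fixes part of the Px order here too. In severe Px against Sham 7 of the 12 were higher and 1, Pde2a, was lower, against 30.3% and 27.9% of all genes. Near-normal 14 and 16 share the higher label numbers with all 3 severe Px libraries.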

How the data were processed

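Islet RNA in 15 libraries from Lewis rats was analysed from the deposited table of raw read counts for 28914 genes; the 7 Px libraries with a label glucose below 300 form the comparison. The count columns follow the featureCounts layout, per the file headers; the submitters' processing notes list FastQC, Subread, featureCounts and limma with no role or version. No label or header names the genome build, annotation or strand setting (not given in the sources used here), so reads of overlapping or antisense genes and of close copies may be misassigned. The deposited exon lengths and the authors' own comparison of Px with Sham were not used.

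The members and the 31 gene lists (700 genes, 667 in the table) were chosen with earlier results of these data known. Low genes were removed by filterByExpr (count of 10, total of 15), scaling was by TMM over the 7 libraries, and genes were tested with the two-sided quasi-likelihood test of edgeR 4.0.16 (R 4.3.3; Benjamini-Hochberg, 0.05); SE and 95% intervals come from that fit. Severe Px against Sham was fitted apart. Levels are CPM scaled by TMM over 15661 genes in all 15 libraries. Shares are percentages of all counts, compared by exact permutation over 35 splits. Root mean square differences use log2 CPM (prior count 2). The rule for names asked for a call, no overlap between groups, 5 CPM on average and a symbol; as none passed, each direction was filled to 12 by smallest p. Up to 3 members of each list per direction, and a panel of 24 genes (23 in the table), could be named too; other names were chosen after their values were seen, and some genes are not reported here. Alternatives were other scalings, filters, DESeq2 1.42.0, limma 3.58.1 voom, covariates, other groupings and leaving out each library. The fits were tested on simulated counts. Depth ran from 12.21 to 33.42 M counts a library.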

Additional observations from a re-analysis of the deposited data

Results flagged for a closer look

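Among 100 results checked in the 4 mildly raised Px libraries, 11 had 1 library so far from the other 3 that its gap exceeded the 95% critical value of Dixon's ratio for 4 samples. Chance flags about 1 in 20 groups. Some of the genes checked were chosen after their values were seen, so the count of 11 cannot be compared with that rate. Mildly raised 8 was the distant library for 8 of the 11. Within its group it was high in the myeloid genes Lyz2 (2860 CPM) and Mmp12 (367 CPM) and in the metabolic genes Ldha (104 CPM), Scd (19.1 CPM), Angptl4 (16.8 CPM) and Plin2 (71.5 CPM). It was low in Micb (11.3 CPM) and the endocrine factor Rfx6 (35.8 CPM). Mmp12 and Scd were not high in that library alone. Near-normal 14 had 355 CPM of Mmp12 and 14.5 CPM of Scd, and severe Px had 14.7 to 21.6 CPM of Scd. Mildly raised 11, at the highest glucose of the 7, was low in Ins1 (21800 CPM) and Slc9a3r2 (37.2 CPM) and high in Cxcl10 (75.1 CPM). Over all 10476 genes with a mean of at least 5 CPM, 756 (7.22%) had such a distant library, and it was mildly raised 8 for 486 of them (4.64%), 11 for 125, 4 for 107 and 10 for 38.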

How the results depend on the processing

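The count of 0 genes in each direction held in 22 of 25 alternatives, among them other scalings and filters, limma voom with and without weights, covariates for acinar, macrophage and fibroblast content, a slope on log2 glucose, leaving out the libraries at 132 and 152 together, and a term for label number. DESeq2 called 1 higher and 1 lower gene. Leaving out 1 library at a time gave 0 to 8 higher and 0 to 4 lower genes, above 0 only without near-normal 2. The term for label number was added after seeing the data. Leaving out mildly raised 8 and near-normal 2 together, also added after seeing the data, gave 65 higher and 9 lower genes. Among the 99 named genes followed, 46 changed sign in at least 1 alternative, and no called gene was called in the opposite direction elsewhere. The difference in acinar share ranged from -22.79 to -10.42 percentage points when 1 library was left out, that in library total from -6.714 to -2.727 M counts, and that in hormone share from -0.2295 (without near-normal 16) to 2.238. Severe Px against Sham gave 1740 higher and 9671 lower genes with library totals alone, against 4392 and 4044, and 4011 to 4418 higher and 3433 to 4018 lower genes when 1 library was left out. No paired analysis was possible because the groups share no replicate number. With 4 against 3 libraries the exact tests cannot reach 0.05. Depth limits genes with few counts, such as Cxcl1 with 4 to 78 and Cd3d with 7 to 140 counts a library.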
